A study of Gallus gallus with 8 samples.

Results

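The 6 libraries from chicken trunk neural crest cells given Cas9 and a guide against DLC1, PHF5A or SF3B1 were compared, as one set, with the 2 libraries from cells given a scrambled guide. Together these are all 8 libraries of the series. Each target had 2 libraries, 1 for each of 2 guides, and the control had 2 libraries numbered as replicates. All groups were primary Gallus gallus cells collected as GFP+ and profiled by stranded sequencing of polyadenylated RNA. The labels do not say what drives GFP, at what stage the cells were taken, or whether the libraries came from separate cultures or embryos. The tests therefore compare libraries, whose spread may be technical or may come from the mix of cells. The 2 controls held 28068 and 399 reads on the W chromosome, so their mix of W-bearing cells differed. Features on the mitochondrial chromosome, Z and W were left out of scaling and tests. Of 30862 deposited features, 29009 lay elsewhere, and 14761 of these had enough reads to be tested. A gene is called separated here when the values of all 6 knockout libraries lay above, or all 6 below, those of both controls.

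Trunk neural crest cells leave the dorsal neural tube, migrate through the embryo and form sensory and sympathetic neurons, glia and pigment cells. SF3B1 and PHF5A belong to SF3b, the protein assembly with which the U2 particle of the spliceosome grips the branch point adenosine of an intron before the intron is cut out. Long vertebrate genes owe most of their length to introns, and short genes carry few or short ones. The series placed the 3 proteins in a common splicing complex, so the question for the pooled comparison was which transcripts moved the same way whichever of the 3 was targeted. The same control libraries served for all 3 targets. A common effect of the targets therefore cannot be told apart from a shift in those controls.

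The deposited identifiers are not paired with gene symbols, and 0 of them matched the RefSeq gene table at hand. The levels of DLC1, PHF5A and SF3B1 in their own knockouts and of neural crest marker genes were therefore not analysed here. Genes are described by identifier, genomic span, chromosome, expression level and overlap with other features.

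Outside the excluded chromosomes, the knockout libraries held 14749843 to 30433768 reads and the controls held 13781374 and 13759471. The DLC1 and PHF5A libraries were deeper than the controls, and the SF3B1 libraries (17212759 and 14749843) were close to them. The excluded features took 11.5% to 22.3% of all reads in the knockout libraries, against 28.1% and 24.5% in the controls, mostly on the mitochondrial chromosome. The W chromosome took 0.0369% to 0.235% of reads in the knockout libraries, against 0.146% and 0.00219% in the controls, so that control 2, with 399 reads on W against 28068 in control 1, stood apart from the other 7 libraries in this measure. The fits without each control and with W share as a covariate bear on the W difference, and not on depth or mitochondrial share. Depth was made equal, by thinning, only for gene counts of the pooled comparison and for detected features. The part of mitochondrial share in the results below was not tested.

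A large share of the tested transcriptome lay on one side of both controls in all 6 knockout libraries. Of 14761 genes, 2690 (18.2%) lay above both controls and 2850 (19.3%) below both, together 5540 (37.5%). In edgeR's quasi-likelihood test of the mean of the 3 knockouts against control, with Benjamini-Hochberg adjustment at 0.05, 4745 genes (32.1%) were called, of which 2298 (15.6%) rose and 2447 (16.6%) fell. The called and separated genes, which the rest of the account describes, numbered 4051. Among them 1906 rose (12.9% of tested genes) and 2145 fell (14.5%). Scaling by total reads alone instead of TMM gave 78.8% rising genes among the calls in place of 48.4%, and the median log2 fold change of all genes was 0.32 in place of 0.04, so the balance of rising and falling genes rests on the scaling. Called genes numbered 2182 without control 1 and 1380 without control 2, and called and separated genes 2162 and 1370, with separation then judged from the remaining control.

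Separation and the call overlapped without being the same. Of the called genes, 85.4% were separated, and of the separated genes, 73.1% were called, 0 of them in the opposite direction. Separation fixes the sign of the mean difference, and both are taken from the same libraries, so these values are a description. The 784 genes that lay above both controls without a call had a median log2 difference of 0.54, and the 705 that lay below without one a median of -0.40. Many genes lay close to the border that defines separation. Of the genes above both controls, 749 cleared the higher control by less than 1.1-fold, and another 968 missed it by less than that. On the lower side, 912 cleared the lower control by less than 1.1-fold and 987 missed it by less than that.

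The rising genes moved further than the falling ones and were read at a lower level. Their median log2 fold change was 1.05 (quartiles 0.75 and 1.48; median SE 0.227), a 2.07-fold difference, against -0.77 (quartiles -1.03 and -0.59; median SE 0.167) in falling genes. At least a 2-fold difference was seen in 1024 rising genes (53.7%) and in 586 falling genes (27.3%), and at least a 4-fold difference in 200 and 34. Both lists were cut by the call, which asks for a larger change where the SE is larger. The scaling also shifts all changes together, so the difference in size between the lists is a description. The gap between the knockout library nearest the controls and the control nearest the knockouts was usually narrower. It reached 2-fold in 169 rising and 35 falling genes, and 4-fold in 13 and 2. The median gene level over all 8 libraries was 19.1 CPM (reads scaled to a common library total) for rising and 60.3 CPM for falling genes.

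The features with the widest gap in each direction are described in full, since the gap is the direct measure of separation. Only called, separated genes averaging 5 CPM or more in the knockouts or the controls were ranked. Coordinates are on GRCg6a, and CPM uses library sizes scaled by TMM (trimmed mean of M-values). The direction of change of all 4 was chosen by the ranking and is a description.

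ENSGALG00000048209, on chromosome 19 (195297 to 199262, minus strand), had a gap of 5.47 on the log2 scale. The next feature had a gap of 5.33, which is set by the prior count of 2 because neither control held a read of it, so the order of these 2 is not determined by the data. Its level was 26.5 and 34.2 CPM in the DLC1 knockouts, 22.9 and 29.2 CPM in the PHF5A knockouts and 23.3 and 23.2 CPM in the SF3B1 knockouts, against 0.248 and 0.427 CPM in the controls. The knockout libraries lay close together and far from both controls, which held 3 and 5 reads, at and just above the floor of 3 counts, so the control level is poorly known. The mean was 26.5 ± 4.5 CPM over the 6 knockout libraries (SD, n = 6). In the controls it was 0.338 ± 0.126 CPM (SD, n = 2). The log2 fold change was 6.27 (SE 0.335, edgeR adjusted p = 2.68e-05). This SE was worked back out of the test result. With 8 control reads in all, it may understate the error of the change. The levels in the 3 knockouts were not distinguished from one another (edgeR adjusted p = 0.454 for any difference among them).

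ENSGALG00000030129 lies on the minus strand of the unplaced scaffold KZ626834.1 (244710 to 298175) and had no read in either control. It held 309 and 97 reads in the DLC1 knockouts, 313 and 528 in the PHF5A knockouts and 260 and 301 in the SF3B1 knockouts, against 0 and 0 in the controls. These are levels of 9.71 and 3.53 CPM, 9.64 and 19.1 CPM, and 13.5 and 19.6 CPM, where 3 reads would have been 0.248 and 0.256 CPM in the controls. Every knockout library was above that floor. Pooled over libraries, the level was at least 93.1-fold higher in the knockouts than 3 counts over both controls would give (edgeR adjusted p = 0.00107). Its span is overlapped by 11 other features, 4 of them on the same strand, of which the most read held 0 reads.

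ENSGALG00000067111, on chromosome 3 (64543355 to 64547713, plus strand), had the widest gap among falling genes. Its level was 0.283 and 0.109 CPM in the DLC1 knockouts, 0.154 and 0.652 CPM in the PHF5A knockouts and 0.573 and 1.5 CPM in the SF3B1 knockouts, against 6.29 and 4.95 CPM in the controls. The highest knockout library, the second guide against SF3B1, still lay well under the lower control. The log2 fold change was -3.69 (SE 0.445, edgeR adjusted p = 0.00102), and the knockouts rested on 3 to 23 reads each.

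ENSGALG00000056015, on chromosome 16 (2781457 to 2794978, minus strand), fell in all 3 knockouts but to different levels. It had 3.02 and 3.75 CPM in the DLC1 knockouts, 1.82 and 2.57 CPM in the PHF5A knockouts and 10.5 and 12 CPM in the SF3B1 knockouts, against 35.2 and 33.1 CPM in the controls. The SF3B1 libraries stood between the other knockouts and the controls, and the ranges of the 4 groups did not overlap. The log2 fold change of the knockout mean was -2.97 (SE 0.178, edgeR adjusted p = 4.49e-05), and the difference among knockouts also passed the test (edgeR adjusted p = 0.00694). The span overlaps 1 feature on the opposite strand, which held 5872 reads over the 8 libraries against 1528 for this one, and the strand setting of the counting is not given in the sources used here, so reads of the pair cannot be told apart with certainty.

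**Figure D1:**
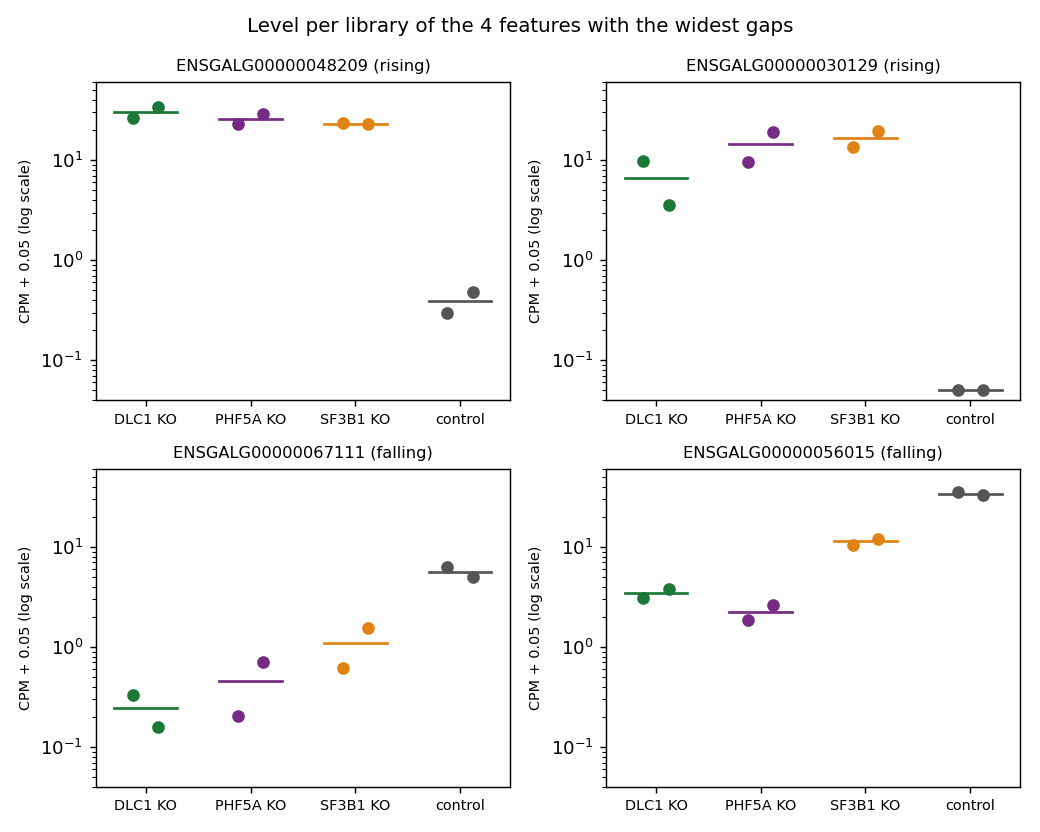
Level of the 4 features with the widest gaps in each library, as CPM + 0.05 on a log axis, with DLC1, PHF5A and SF3B1 knockouts left of the control; points are libraries and lines are group means. Every knockout point lies on one side of both controls, and the SF3B1 libraries of ENSGALG00000056015, at 10.5 and 12 CPM, lie between the other knockouts and the controls.

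Genomic span divided the rising from the falling genes. Rising genes had a median span of 33.3 kb and falling genes a median of 7.1 kb, against 15.4 kb for all tested genes. The deposited length equals the whole span in 100% of features, so the region counted for each gene took in its introns, and reads falling there count toward it. The part of such reads in the pattern by span was not tested. Among 1451 genes of up to 3 kb, 379 (26.1%) fell and were separated, while 94 (6.48%) rose. The shares over all tested genes were 14.5% and 12.9%, and the median log2 fold change was -0.38 in the short genes against 0.04 overall. Falling genes also led among the 4141 genes of 3 to 10 kb, at 962 (23.2%), with 245 (5.92%) rising. Their median was -0.21, or 0.06 when libraries were scaled by total reads alone, below the 0.32 of all genes under that scaling.

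Genes of 10 to 30 kb were balanced, with 544 that rose and 560 that fell of 4554. Above that size the order was turned round. At 30 to 100 kb, rising genes numbered 747 of 3277 (22.8%) and falling ones 192 (5.86%), and the median was 0.28. At 100 to 300 kb, 243 of 1118 (21.7%) were rising and 46 (4.11%) falling, with a median of 0.35. The 220 genes over 300 kb had 33 that rose (15%) and 6 that fell (2.73%). These longest genes were split by target, with medians of 0.63 (DLC1), 0.48 (PHF5A) and -0.14 (SF3B1).

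The counts were smaller with 1 control, and in both classes the share was above that of all genes. In every fit with 1 control the spread is estimated from the knockout libraries alone, and the remaining control is assumed to vary as they do. Without control 1, 251 genes of up to 3 kb fell (17.3%, against 7.44% of all genes) and 473 genes of 30 to 100 kb rose (14.4%, against 7.17%). Without control 2, 89 genes of up to 3 kb fell (6.14%, against 3.54%) and 341 genes of 30 to 100 kb rose (10.4%, against 5.71%). With W share as a covariate, the numbers were 230 (15.9%, against 8.37%) and 478 (14.6%, against 7.71%). Scaled by library size only, they were 188 (13%, against 5.71%) and 1222 (37.3%, against 23.3%).

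**Figure D2:**
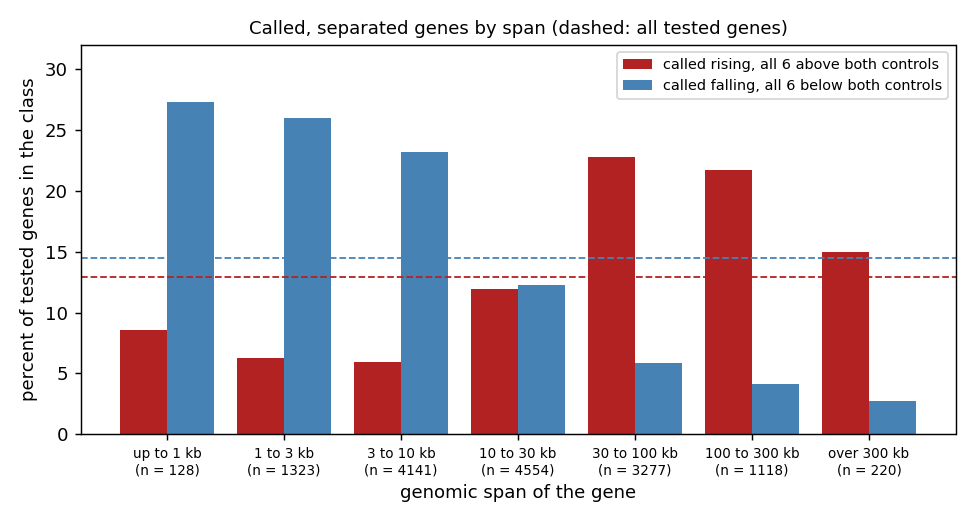
Percent of tested genes in each class of genomic span that were called rising with all 6 knockout libraries above both controls (red) or called falling with all 6 below (blue); dashed lines give the same over all tested genes, 12.9% and 14.5%. Falling genes prevail up to 10 kb and rising genes from 30 kb; scaled by library size only, the class of 3 to 10 kb had more rising genes than falling ones, at 484 and 415.

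The same order was measured library by library. For each library the median log2 ratio to the mean of all 8 libraries was taken over genes of 30 to 100 kb and over genes of up to 3 kb, and the second was subtracted from the first. This span difference was 0.251 and 0.0209 in the DLC1 knockouts, 0.551 and 0.0361 in the PHF5A knockouts and 0.203 and -0.177 in the SF3B1 knockouts, against -0.394 and -0.543 in the controls. Every knockout library lay above both controls, and within each target the first guide lay higher. The mean was 0.148 ± 0.249 in the knockouts and -0.469 ± 0.105 in the controls (SD, n = 6 and 2), and the difference of 0.62 had p = 0.0357 in a two-sided exact permutation test of the 6 libraries against 2, the smallest p the design allows, and 0.0357 after Benjamini-Hochberg adjustment over the 2 measures tested per library. Without the first SF3B1 guide the exact p was 0.0952, and without control 1 or control 2, where no p under 0.143 is possible, it was 0.143 and 0.286. With no filter on low counts the difference was 0.24, with an exact p of 0.0714. The span difference was taken from the same libraries as the called genes, so its test is not separate support for the pattern. The test also treats the 6 knockout libraries as exchangeable, although they come from 3 targets. The mitochondrial share of all reads was 8.01% to 9.65% with the first guides and 15.7% to 19.6% with the second guides. In the controls it was 25.9% and 21.4%, so these sets of libraries stood in the reverse order of their span difference. The part of mitochondrial share in the span difference was not tested.

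**Figure D3:**
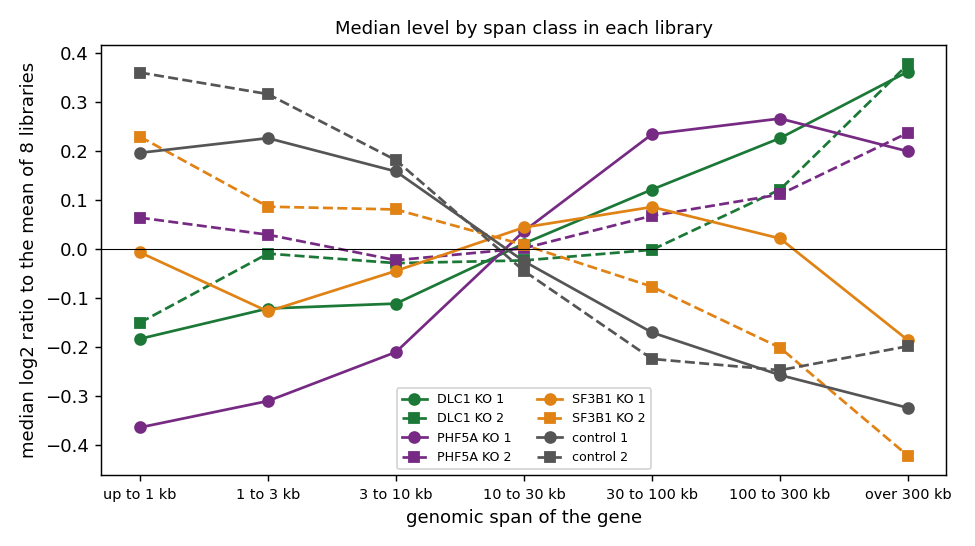
Median log2 ratio to the mean of the 8 libraries, by class of genomic span, with 1 line per library; circles are first guides or control 1 and squares are second guides or control 2. Both controls lie above 0 up to 10 kb and below 0 in every longer class; the DLC1 and PHF5A libraries lie above both controls in every class over 10 kb, and the second SF3B1 guide, at -0.422 over 300 kb, lies below both controls there.

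Among the classes of level and span examined, short genes of high expression had the largest share of falling genes. Tested genes were divided into 3 equal classes by mean CPM over all 8 libraries. In the highest class of expression, 191 of 304 genes of up to 3 kb (62.8%) fell and were separated, and 5 rose (1.64%), with a median log2 fold change of -0.76. By target the median was -0.71 (DLC1), -0.86 (PHF5A) and -0.70 (SF3B1), so the 3 medians had the same sign. In the middle class 123 of 390 genes of that size (31.5%) fell and 21 rose. In the lowest class 65 of 757 (8.59%) fell and 68 (8.98%) rose.

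This class had fewer separated falling genes in each alternative run, and a share above that of all genes in each. It held 145 of 304 genes without control 1 (47.7%, against 7.44% of all genes), 53 without control 2 (17.4%, against 3.54%), 114 scaled by library size only (37.5%, against 5.71%) and 128 with W share as a covariate (42.1%, against 8.37%). Long genes behaved otherwise. Among genes of 30 to 100 kb, rising ones made up 13.1% in the lowest class, 33.1% in the middle class and 19.7% in the highest class. Falling ones made up 3.3%, 4.49% and 9.25%. The median log2 fold changes of these long genes were 0.39, 0.39 and 0.13. The lowest and middle classes thus differed in the share called while their medians were alike. Over genes of every span, 25.8% of the highest class fell and 9.49% rose, an order that turned round when libraries were scaled by size only (521 and 1060 genes).

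**Figure D4:**
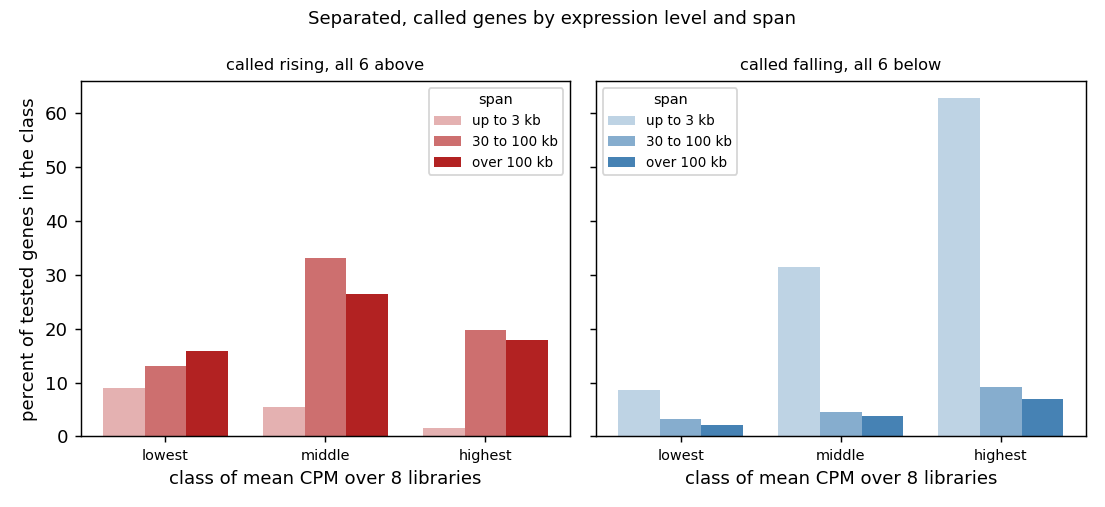
Percent of tested genes called and separated, rising at left and falling at right, by mean CPM in 3 equal classes and by genomic span. The tallest bar, 62.8%, is that of falling genes of up to 3 kb in the highest class; scaled by library size only, it was 37.5%.

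Among short genes, the share that fell was larger where the span overlaps another annotated feature. Of 194 genes of 1 to 3 kb that overlap a feature on the opposite strand only, 82 (42.3%) fell and were separated and 3 rose. Of 80 that overlap a feature on the same strand, 33 (41.2%) fell and 2 rose. Of 1049 with no overlap, 229 (21.8%) fell and 78 rose, and the medians were -0.66, -0.65 and -0.29. Overlapping and free genes were not matched for level, and the difference was not tested. The strand setting of the counting is not given in the sources used here, so reads of an overlapping gene and of its neighbour may not be told apart, and the counts of overlapping genes are uncertain. The 274 overlapping genes of this size had 115 that fell (42%), 91 without control 1 (33.2%, against 12.6% of those with no overlap), 33 without control 2 (12%, against 4.77%), 73 with W share as a covariate (26.6%, against 13.1%) and 64 scaled by library size only (23.4%, against 10.1%). At 30 to 100 kb the shares that fell lay close together, at 6.46%, 6.74% and 5.49%.

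By chromosome, separated genes were spread over the whole set, and the share of falling genes was higher on the small chromosomes than on the large ones. Chicken chromosomes include several large ones and many small, gene-dense microchromosomes. On chromosomes 1 to 10, 1238 of 9184 genes (13.5%) rose and 1175 (12.8%) fell, and on chromosomes 11 to 33, 657 of 5470 (12%) rose and 955 (17.5%) fell. The small chromosomes carry shorter genes, with a median span of 9.83 kb against 20.6 kb on the large ones. Within a class of span the chromosome groups differed in both directions. At 1 to 3 kb, 31.4% of genes fell on the small chromosomes and 21.2% on the large ones, while at 30 to 100 kb 28.9% rose on the small and 20.8% on the large. At 3 to 10 kb the falling shares were 24.5% and 22.2%. Whether falling genes outnumbered rising ones on the small chromosomes rested on control 2 and on the scaling. Without control 2, 303 genes (5.54%) rose there and 265 (4.85%) fell, and without control 1, 383 (7%) rose and 480 (8.78%) fell. The median log2 fold change there was -0.04 with both controls, 0.03 without control 2 and 0.02 without control 1. On the large chromosomes 252 genes (2.74%) fell without control 2 and 612 (6.66%) without control 1. Scaled by library size only, more genes rose than fell in both chromosome groups, at 1195 and 413 on the small chromosomes and 2227 and 425 on the large ones.

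Among single chromosomes, 25 had the highest share of falling genes, 52 of 192 (27.1%) with 12 that rose, and a median log2 fold change of -0.26. Chromosome 27 followed with 63 of 266 (23.7%) and a median of -0.20. Scaled by library size only, these medians were 0.02 and 0.08, below the 0.32 of all genes. Without control 2 these counts were 24 and 20, and without control 1 they were 33 and 36. Rising genes took their highest share on chromosome 31 (8 of 46) and chromosome 7 (85 of 518, 16.4%). Of 107 genes on unplaced scaffolds, 11 rose (10.3%) and 15 fell (14.0%), near the 12.9% and 14.5% of all tested genes.

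**Figure D5:**
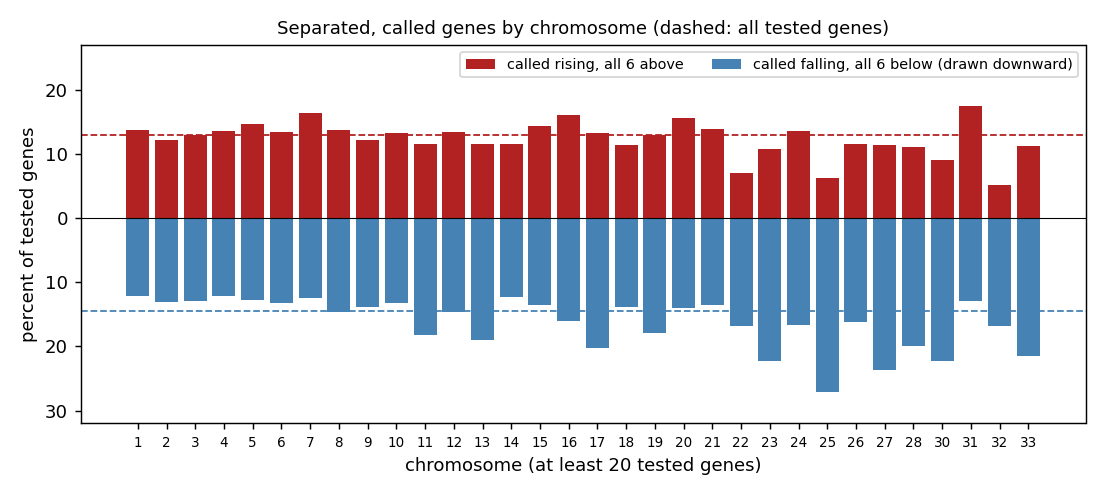
Percent of tested genes on each chromosome that were called and separated, rising upward in red and falling downward in blue, for chromosomes with at least 20 tested genes; dashed lines give all tested genes, 12.9% and 14.5%. Chromosome 25 has the longest blue bar, at 27.1%, and its median log2 fold change of -0.26 was 0.02 when libraries were scaled by size only.

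The 3 targets contributed unequally to the separated genes. The single comparisons share the control libraries with each other and with the pooled one, so their values are given side by side. In rising genes the median log2 fold change was 0.93 (DLC1), 1.21 (PHF5A) and 1.00 (SF3B1), and in falling genes it was -0.74, -0.88 and -0.67. The PHF5A value was the largest of the 3 in 1138 rising genes (59.7%) and 1312 falling genes (61.2%). DLC1 gave the smallest in 991 rising genes (52%), and SF3B1 in 1226 falling genes (57.2%). This order of targets was not counted over all tested genes. There too PHF5A knockout had the most calls, at 17% rising and 15.5% falling, so the order is not shown to be particular to the separated genes.

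Taken one target at a time, the called and separated genes were called most often in PHF5A knockout. They were chosen by a contrast that is the mean of these 3, and by separation in the same libraries. Shares above those of all tested genes are therefore built in, and the values are a description. Of the 1906 rising genes, 1085 (56.9%) were called with DLC1 targeted, 1736 (91.1%) with PHF5A and 1124 (59%) with SF3B1, where 9.63%, 17% and 10.5% of all tested genes were called rising. Of the 2145 falling genes, 1214 (56.6%), 1820 (84.8%) and 889 (41.4%) were called, against 9.74%, 15.5% and 7.3% of all tested genes called falling. All 3 targets called 652 of the rising and 544 of the falling genes, and 49 and 150 were called in none of them. Such overlaps were not counted over all tested genes. The SF3B1 libraries were close to the controls in depth. After every library was thinned to the smallest total, 4014 genes were called and separated in the pooled comparison, 3853 of them among the 4051. Calls by target were not made on the thinned counts, so the part of depth in the unequal shares was not tested.

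Single libraries set the border of separation. In 859 of 1906 rising genes (45.1%) the knockout library nearest the controls was the second DLC1 guide, and in 636 (33.4%) the second SF3B1 guide. In falling genes these were reversed, with 1062 of 2145 (49.5%) nearest in the second SF3B1 guide and 541 (25.2%) in the second DLC1 guide. The first PHF5A guide was the farthest from the controls most often, in 800 rising (42%) and 1117 falling genes (52.1%). The nearest and farthest libraries were not counted over all tested genes, so these values are a description. Of 392 rising calls that were not separated, 350 failed through 1 library, which was the second DLC1 guide in 228 and the second SF3B1 guide in 105. Of 302 such falling calls, 234 failed through 1 library, the second SF3B1 guide in 115 and the second DLC1 guide in 65.

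The 2 libraries of a group differed by similar amounts in the separated genes and over all tested genes. Separation and the call favour genes of small spread, so these values are a description. In rising genes the 2 libraries of a group differed by a median of 0.282 (DLC1), 0.274 (PHF5A), 0.247 (SF3B1) and 0.246 (control) on the log2 scale, and in falling genes by 0.195, 0.294, 0.268 and 0.204. Over all tested genes these medians were 0.248, 0.313, 0.244 and 0.258. Per library, the median log2 ratio of the rising genes to the mean of the controls was 1.03 and 0.803 with DLC1 targeted, 1.27 and 1.11 with PHF5A targeted and 1.08 and 0.853 with SF3B1 targeted. In falling genes it was -0.81 and -0.674, -1.0 and -0.779, and -0.778 and -0.536. Within each target the first guide thus lay farther from the controls in both lists. The mitochondrial share of all reads differed between guides in one direction too, at 9.65%, 8.01% and 9.44% with the first guides against DLC1, PHF5A and SF3B1 and 15.7%, 19.6% and 18.0% with the second guides, against 25.9% and 21.4% in the controls. Its part in these differences was not tested.

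Whether the separated genes stood at the same level in the 3 knockouts was tested in the same fit, with no use of the controls in the contrast. A difference among the 3 knockouts was called in 343 of 14761 genes (2.32%; edgeR adjusted p under 0.05), against 3618 at an unadjusted p under 0.05. It was called in 32 of the 1906 rising, separated genes (1.68%) and 37 of the 2145 falling ones (1.72%), and in 53 of 392 rising calls (13.5%) and 40 of 302 falling calls (13.2%) that were not separated. Since separation itself leaves less room for knockouts to differ, these shares are a description. In the 32 rising genes PHF5A was largest in 23 and SF3B1 smallest in 23, with medians of 1.34 (DLC1), 1.86 (PHF5A) and 0.77 (SF3B1). In the 37 falling genes PHF5A was largest in 27 and SF3B1 smallest in 29, with medians of -1.40, -1.95 and -0.62.

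The number of genes that differed among knockouts rested on single libraries and on the model. It was 151 and 17 without the first and second DLC1 guide, 975 and 1003 without the first and second PHF5A guide, and 56 and 19 without the first and second SF3B1 guide. With all libraries kept, it was 7 with W share as a covariate, 517 with limma-voom, 1181 with the guide or replicate number as a replicate block, 1626 with DESeq2 and 2593 with no filter on low counts. A missing call of this kind therefore does not show that a gene stood at the same level in the 3 knockouts.

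More features were detected in the knockout libraries at equal total reads. The TMM factors were 0.877 and 0.852 in the controls and 0.970 to 1.12 in the knockouts. At the same total, a typical gene thus drew fewer reads in the controls. The part of this in the difference was not tested. After thinning to the smallest total, features with at least 3 reads numbered 15713 and 15266 in the DLC1 knockouts, 15523 and 15775 in the PHF5A knockouts and 15896 and 15637 in the SF3B1 knockouts, against 14871 and 15127 in the controls. The groups did not overlap, though the second DLC1 guide lay close to control 2. The means were 15635 ± 220 in the knockouts and 14999 ± 181 in the controls (SD, n = 6 and 2). The difference of 636 had p = 0.0357 in a two-sided exact permutation test, the smallest possible. After Benjamini-Hochberg adjustment over the 2 measures it was 0.0357. Here too the test treats the 6 knockout libraries as exchangeable, although they come from 3 targets. Without control 1 or control 2 the difference was 508 and 764, each with an exact p of 0.143, the smallest that 1 control allows.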

How the data were processed

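Raw counts per Ensembl gene ID were deposited by the authors for 30862 features. Per the submitters' processing notes, reads were handled with STAR 2.7.11b and featureCounts 1.5.3 on build GRCg6a, with FastQC 0.12.1 and Trimmomatic 0.39 also listed. Strand setting and annotation release: not given in the sources used here. In 100% of features the deposited length is end minus start plus 1, so the counted region includes introns, and reads from introns count toward a gene.

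Features on MT, Z and W were removed, genes were kept by filterByExpr, scaled by TMM and tested in one fit of 4 groups with edgeR 4.0.16 (R 4.3.3), by its robust quasi-likelihood test. The pooled contrast was the mean of the 3 knockouts minus control; a test with 2 contrasts compared the knockouts. Standard errors came from the fold change and F. Log2 CPM used a prior count of 2. Groups of genes were described by counts and medians, with no set test. The fit was run on simulated counts as a check of the code. These held no difference between guides or among targets, so the run does not test how such differences affect the calls. DESeq2 1.42.0 and limma 3.58.1 were alternatives. Members, lists and tests were chosen with earlier results of these data known. Named features were, among called and separated genes of at least 5 CPM in either group, the 2 rising and 2 falling ones of widest gap. The floor of 3 counts was 0.0924 to 0.256 CPM; floors cover counting error only. The 2 libraries of each group differed by more than sampling noise (chi-square per degree of freedom from 19.5 to 61.8).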

Additional observations from a re-analysis of the deposited data

Results flagged for a closer look

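ENSGALG00000056015 was called in the pooled comparison and also differed among the 3 knockouts (edgeR adjusted p = 0.00694). Its log2 fold change against control was -3.34 in DLC1 knockout (SE 0.259), -3.96 in PHF5A knockout (SE 0.268) and -1.60 in SF3B1 knockout (SE 0.241). Over all tested genes, a difference among the 3 knockouts was called in 343 by the same test, 69 of them called and separated in the pooled comparison and 274 not separated.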

How the results depend on the processing

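Called genes (4745) numbered 2546 with W share as a covariate, 3076 with the 6 knockout libraries as 1 group, 900 in a test against a 1.5-fold change, and 1380 to 5133 when 1 library was left out. Called and separated genes (4051) numbered 2373, 3011 and 877 under the same 3 settings and 1370 to 4252 without 1 library. Genes above both controls numbered 4494 with library size only, 582 with a gap of at least 1.5-fold and 2758 to 4583 without 1 library; genes below both numbered 1272, 225 and 2945 to 3762. Genes differing among knockouts (343) numbered 2593 with no filter on low counts, 7 with W share as a covariate, 1626 with DESeq2, 517 with limma-voom and 17 to 1003 without 1 library. The span difference was 0.238 with no filter and 0.501 to 0.665 without 1 library, and the difference in detected features 508 to 764. The cause was not tested. The share of called genes that rose was 46% with median-ratio size factors and 47.3% with DESeq2. It was 55.7% with at least 1 CPM in 6 libraries, 54.5% with all chromosomes kept and 58.9% in the test against a 1.5-fold change. Over all genes tested in each fit, the median log2 fold change was 0.117 without control 2 and 0.094 without control 1, against 0.035 with all libraries. The 4 named features kept their direction and call in each alternative in which they were tested. They were chosen for the widest gaps in these same data, so this is a description. They were not followed with the knockouts as 1 group, against a 1.5-fold change or in thinned counts.

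Deviations of same-numbered libraries from their group means correlated across genes at -0.238 to 0.324, over 0.1 in 3 of 6 pairs of groups, and the labels name no shared batch, so the numbers were not taken to pair the libraries. The first guides did differ from the second in one direction in all 3 targets, in mitochondrial share and in span difference. With the replicate block, 5653 genes were called, 4482 were called and separated, and 1181 differed among knockouts. With 2 controls, no permutation p under 0.0357 is possible.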

Other observations

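With all chromosomes kept in scaling and tests, the excluded features could be read in the same way. Of 37 mitochondrial features, 0 lay above both controls in all 6 knockout libraries and 17 below, and 20 were called falling (median log2 fold change -1.19). Of 752 tested Z features, 105 lay above and 93 below, with 102 called rising and 91 falling. Of 38 tested W features, 4 lay above and 1 below. For comparison, of all 15619 genes tested in that fit, 3135 lay above and 2599 below, with 2620 called rising and 2185 falling.

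Outside MT, Z and W, 27 features had no read in either control and at least 3 reads in each of the 6 knockout libraries, and 1 feature had the reverse pattern, with no read in any knockout library and at least 3 in each control. After thinning to equal total reads these numbers were 8 and 1. The rules are unequal, since the first asks for zeros only in the controls and the reverse for zeros in all 6 knockout libraries. As deposited, the DLC1 and PHF5A libraries were also deeper than the controls. The numbers are therefore a description, and do not show that more features were gained than lost.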
